A study of Mus musculus with 2 samples.

Results

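Open chromatin of naive resting CD8 T cells was examined at intergenic sites that lie 1 to 50 kb from the nearest gene start. A site was a peak of the shorter peak list of replicate 2 that touched no protein-coding gene body and whose nearest edge lay over 1 kb and at most 50 kb from the nearest protein-coding transcription start site (GENCODE M21 basic annotation, mm10). Of the 38223 peaks of that list, 7588 met the rule (19.9%, Wilson 95% interval 19.5 to 20.3). The same rule on the shorter list of replicate 3 gave 2638 of 17061 peaks (15.5%, 14.9 to 16.0), a mean of 17.7% ± 3.10 (SD, n = 2). The other peaks of replicate 2 lay within 1 kb of a start site (16360), in introns (9370), in exons (1821) or in intergenic sequence beyond 50 kb (3084).

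The series held 1 group, naive resting CD8-positive T cells of adult male mice, 2 months old and virgin, of the strain B6CASTF1/J, which is a first-generation cross of C57BL/6J and CAST/EiJ. Each of the 2 libraries was profiled by DNase-seq, in which the nuclease DNase I cuts open DNA and the cut positions are sequenced. They are named by the biological replicate numbers of their labels, 2 and 3, and no other group was available for comparison. The labels give 1 donor identifier for both but a biosample of its own to each, so the spread between them may be technical. The build, mm10, is a C57BL/6J sequence, so 1 of the parental genomes is the reference. A peak list cannot tell a site open in fewer cells from a site less open in every cell.

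The deposited signal was counted in steps of 0.00746 in replicate 2 and 0.0452 in replicate 3. If the values are scaled to 1e+06 tags, these steps give depths of 1.34e+08 and 2.21e+07 tags, a ratio of 6.05. Absence from replicate 3 means here that no peak was called in that library. It does not show that a site was closed, and the part of depth in it was not tested. The labelled cell type was checked at promoters. Within 1 kb of their start sites, 4 of 6 T cell markers (Cd3e, Cd3d, Cd3g and Cd8b1) had a peak in replicate 2 and 1 of 6 (Cd8b1) in replicate 3. The remaining markers, Cd8a and Cd4, had none in either library. These counts were not set against the share of all genes with such a peak. Among markers of other cells, peaks were found at 0 of 5 B cell genes, 0 of 4 erythroid genes and 0 of 3 genes of other lymphocytes in both libraries. The myeloid gene Itgam had one in replicate 2, 1 of 5 in that list.

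Intergenic open sites close to genes are where many enhancers, insulators and promoters of non-coding RNA genes lie. Enhancers bind sequence-specific factors and act on gene starts at a distance, and in T cells the families RUNX, ETS, TCF7/LEF1 and KLF are well known there. The zinc finger protein CTCF binds a long, information-rich consensus and, with cohesin, anchors chromatin loops. A factor that stays on DNA protects its bases from the nuclease and leaves a footprint within the open site.

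A few sites show the kinds of sequence that the results below turn on. Each is given 5′ to 3′ on the plus strand of mm10, with the bases that lay in a footprint of replicate 2 in capitals. The first, chr14:51064821-51065040 with Olfr750 as nearest gene, had the highest mean signal rank over both libraries among sites with a footprinted CTCF match, and it also overlapped a tRNA-Pro gene. The second, chr6:124903661-124903860, lies downstream of the start of Lag3, the gene of an inhibitory receptor of T cells. Its CTCF match begins at base 90 and all 12 bases of the match are capitals. The third, chr8:94704021-94704260 near Pllp, overlapped part of a tRNA-Leu gene and had the highest mean rank among tRNA sites of at most 300 bp without a CTCF match.
Olfr750: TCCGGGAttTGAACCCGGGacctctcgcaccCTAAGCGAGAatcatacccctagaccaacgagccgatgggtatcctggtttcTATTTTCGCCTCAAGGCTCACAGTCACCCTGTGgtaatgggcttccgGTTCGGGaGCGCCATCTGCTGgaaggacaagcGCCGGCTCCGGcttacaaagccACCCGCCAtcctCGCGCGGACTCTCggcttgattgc
Lag3: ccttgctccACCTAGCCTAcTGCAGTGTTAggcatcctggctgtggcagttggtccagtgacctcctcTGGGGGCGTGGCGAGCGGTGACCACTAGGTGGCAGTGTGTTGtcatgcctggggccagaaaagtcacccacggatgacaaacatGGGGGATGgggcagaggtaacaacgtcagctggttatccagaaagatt
Pllp: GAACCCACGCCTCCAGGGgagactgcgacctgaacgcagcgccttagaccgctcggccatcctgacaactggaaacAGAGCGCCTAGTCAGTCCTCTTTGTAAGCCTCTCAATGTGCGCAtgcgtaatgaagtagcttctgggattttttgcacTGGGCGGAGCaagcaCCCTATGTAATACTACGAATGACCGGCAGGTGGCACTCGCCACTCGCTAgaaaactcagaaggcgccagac
The next ones are the strongest sites of 3 T cell genes, shown because replicate 3 treated them differently. Tcf7 is at chr11:52314091-52314390 and Ccr7 at chr11:99170891-99171190, in both cases the central 300 bases of the peak, and Cxcr4 is at chr1:128611921-128612220. The last, chr11:87755421-87755660 with Tspoap1 as nearest protein-coding gene, overlaps the start of Mir142hg, the host gene of a microRNA of blood cells.
Tcf7: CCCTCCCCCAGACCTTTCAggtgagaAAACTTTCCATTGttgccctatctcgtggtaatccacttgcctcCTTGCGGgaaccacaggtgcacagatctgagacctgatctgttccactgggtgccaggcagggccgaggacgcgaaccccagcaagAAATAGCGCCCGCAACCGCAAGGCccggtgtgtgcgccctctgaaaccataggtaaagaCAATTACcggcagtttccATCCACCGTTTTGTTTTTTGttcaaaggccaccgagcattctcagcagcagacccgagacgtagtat
Ccr7: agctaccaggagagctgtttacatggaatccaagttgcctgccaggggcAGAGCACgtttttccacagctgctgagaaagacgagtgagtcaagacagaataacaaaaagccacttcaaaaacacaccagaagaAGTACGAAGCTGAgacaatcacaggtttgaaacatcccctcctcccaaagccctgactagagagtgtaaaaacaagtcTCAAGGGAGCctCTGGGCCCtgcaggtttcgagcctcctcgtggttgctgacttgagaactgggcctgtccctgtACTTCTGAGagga
Cxcr4: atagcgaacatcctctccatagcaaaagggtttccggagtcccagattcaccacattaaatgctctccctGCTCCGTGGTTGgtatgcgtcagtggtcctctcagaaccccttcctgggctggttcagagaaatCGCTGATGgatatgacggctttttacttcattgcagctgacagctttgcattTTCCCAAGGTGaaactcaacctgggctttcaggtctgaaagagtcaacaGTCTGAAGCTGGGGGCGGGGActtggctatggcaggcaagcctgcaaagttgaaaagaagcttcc
Tspoap1: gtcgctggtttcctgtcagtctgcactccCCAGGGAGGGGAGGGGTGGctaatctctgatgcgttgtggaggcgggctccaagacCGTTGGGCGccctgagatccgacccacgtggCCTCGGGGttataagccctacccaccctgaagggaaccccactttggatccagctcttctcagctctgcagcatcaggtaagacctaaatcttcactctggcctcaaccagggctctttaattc
The Tcf7 window held 90 footprinted bases in 6 footprints and matches to the RUNX, ZEB and NFAT consensus, of which those for ZEB and NFAT were footprinted. Footprints were extended by 5 bp for this, and part of that ZEB match (CAggtg) lies outside the capitals. The Ccr7 window held 47 footprinted bases in 5 footprints, with AP-1, FOXO, NFAT and bHLH matches and no footprinted match. The Cxcr4 site had a footprinted KLF/SP match, and the Tspoap1 site matched none of the 17 motifs searched.

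Sites were densest close to gene starts. In replicate 2 there were 21.1 sites per Mb of eligible sequence at 1 to 5 kb, 17.0 at 5 to 10 kb, 15.6 at 10 to 20 kb and 12.02 at 20 to 50 kb. The corresponding densities in replicate 3 were 7.39, 6.14, 5.40 and 4.09 per Mb. The first interval was thus 1.75 times as dense as the last in replicate 2 and 1.81 times in replicate 3. The median distance to the start was 14.4 kb.

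Upstream sites numbered 5399, or 71.2% (70.1 to 72.2) of the sites, in sequence of which 71.4% was upstream. In replicate 3 the upstream share was 69.0% (67.2 to 70.7). Density per Mb upstream relative to downstream was 0.986 in replicate 2 and 0.890 in replicate 3. The totals hide a difference in shape between the sides. Upstream density was lower in each successive interval, with 22.0, 17.3, 14.8 and 11.1 sites per Mb in replicate 2. Downstream density was 14.6, 16.2, 17.6 and 13.8, highest at 10 to 20 kb, and replicate 3 had the same order with 5.74, 6.39, 7.09 and 4.80. Downstream sequence within a few kb of a start is intergenic only past the end of a short gene, and just 8.89 Mb of the 508.5 Mb of eligible sequence lay downstream at 1 to 5 kb.

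**Figure D1:**
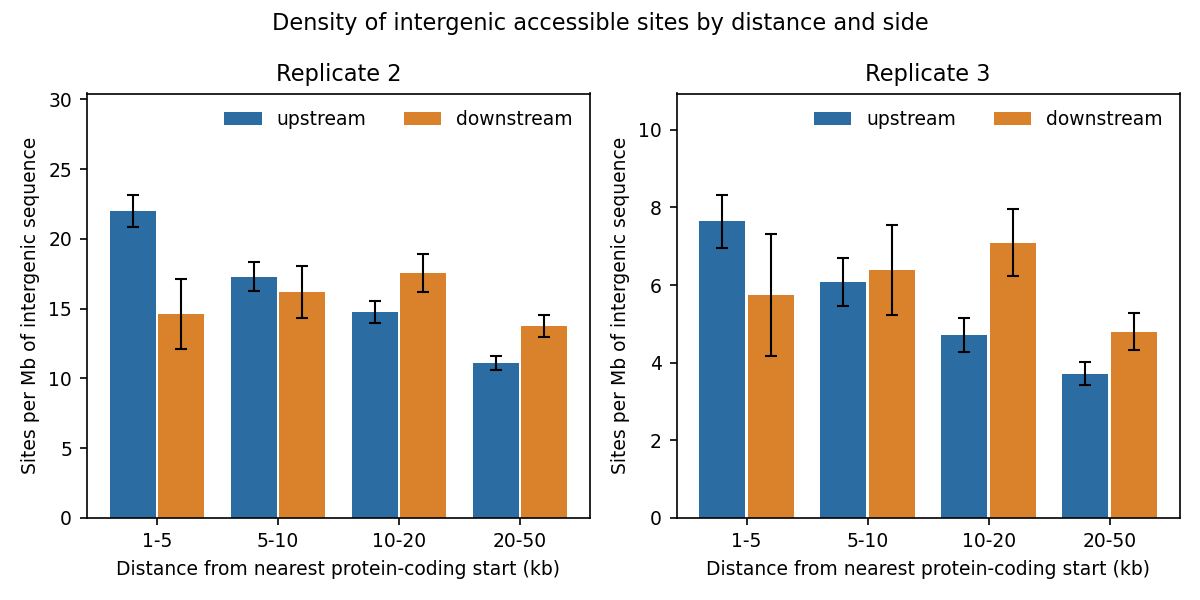
Sites per Mb of eligible intergenic sequence by distance from the nearest protein-coding start, upstream and downstream, in each library (bars; error bars are 95% Poisson counting intervals by the normal approximation). Upstream density is highest at 1 to 5 kb and downstream density at 10 to 20 kb in both libraries.

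Intergenic sites were narrow and of moderate signal. Their median signal was 1.17 in replicate 2 (interquartile range 0.761 to 1.94, full range 0.0597 to 73.2), against 2.08 for peaks within 1 kb of a start, 1.16 in exons, 0.992 in introns and 0.865 beyond 50 kb. The median width was 180 bp in replicate 2 and 160 bp in replicate 3. Nearer sites had somewhat more signal, with medians of 1.31, 1.31, 1.19 and 1.04 over the 4 distance intervals. GC content had a median of 51.8%, and the observed over expected CpG ratio one of 0.309, against 64.6% and 0.803 at start sites. Bases masked as repeats made up 12.4% of a site on average. Overlapping calls were rare, since 91 sites (1.20%) shared bases with another site.

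Presence in replicate 3 was less frequent than for peaks at large. Of the 7588 sites, 2605 (34.3%, 33.3 to 35.4) overlapped a peak of the shorter list of replicate 3, against 42.5% of all peaks of replicate 2. With the longer list 54.2% were present, against 58.7% of all peaks. The share in the shorter list was 59.6% within 1 kb of a start, 32.6% in exons, 25.9% in introns and 28.3% beyond 50 kb. Signal differs between these classes, so they were also compared within 10 groups of equal size by signal. The difference from peaks within 1 kb of a start was then -6.72 percentage points (95% interval -7.77 to -5.67), but with 50% of both peaks required to overlap it was -0.838. Against introns it was 1.57 points (0.449 to 2.68), and against sites beyond 50 kb -4.67 points (-6.20 to -3.14).

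Presence followed signal closely. With the sites in 10 groups of equal size by signal, 2.24% were present in the weakest group, 22.5% in the fifth and 90.3% in the strongest. Among the sites present, Spearman's rho between the signals of both libraries was 0.869 over 2605 sites, a description across sites that share their libraries. The median log2 ratio of replicate 3 to replicate 2 signal was 0.19. In the other direction, 2613 of the 2638 sites of replicate 3 (99.1%) overlapped a peak of the shorter list of replicate 2. Of the 25 that did not, 10 had one in the longer list.

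**Figure D2:**
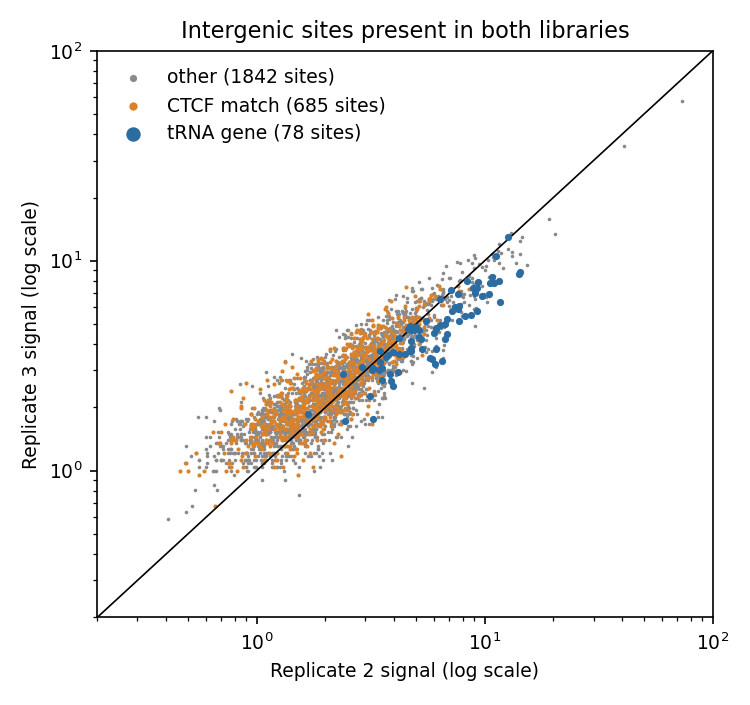
Signal of each site present in the shorter list of both libraries, replicate 2 against replicate 3 on log axes, with sites holding a CTCF match and sites overlapping a tRNA gene in colour and the line of equal signal. Points follow the line, and the 78 tRNA sites lie toward the upper end and mostly below it, with a median log2 ratio of -0.35.

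Footprints were found in nearly all of these sites. At least 1 footprint of replicate 2 lay in 93.8% of the sites (93.2 to 94.3), against 87.6% of all peaks, 91.6% of intron peaks and 81.4% of peaks within 1 kb of a start. The median number was 2 and the highest 17. The share followed signal, from 74.7% in the weakest of the 10 groups to 99.9% in the strongest. By the same rule in replicate 3, 67.5% of its sites had a footprint of that library. The order of the classes was not the same there, since 74.6% of its peaks within 1 kb of a start and 59.8% of those in introns had one. A footprint of replicate 3 lay in 27.5% of the replicate 2 sites, and in 69.5% of those present in both libraries.

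CTCF matches were common in these sites and rare at gene starts. A match lay in 1397 sites (18.4%, 17.6 to 19.3), against 9.82% of all peaks, 1.52% within 1 kb of a start, 17.3% in exons, 14.7% in introns and 13.6% beyond 50 kb. In 1290 of the 1397, or 92.3%, the match was footprinted in replicate 2. The difference was 16.9 points from peaks within 1 kb of a start (16.0 to 17.8), 3.75 from introns (2.62 to 4.88), 4.86 from sites beyond 50 kb (3.34 to 6.32) and 1.11 from exons (-0.886 to 3.00). Of the 2638 sites of replicate 3, 25.6% had a match, against 1.51% within 1 kb of a start, 25.1% in introns and 27.4% in exons. The difference from introns was thus 0.481 points there (-1.88 to 2.84). The match was footprinted in replicate 3 at 226 of the 675 sites of that library that held one, or 33.5%. Downstream sites carried the match in 21.4% of cases and upstream sites in 17.2%. Replicate 3 showed the same side, at 29.1% and 24.0%.

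**Figure D3:**
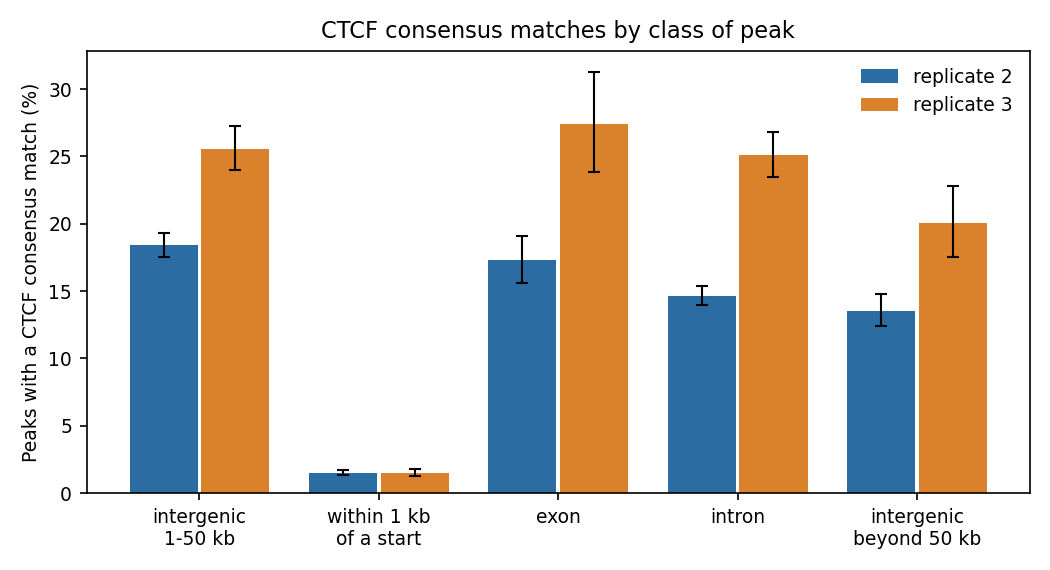
Share of peaks with a CTCF consensus match in each class and library (bars; error bars are Wilson 95% intervals, counting error only). Intergenic sites at 1 to 50 kb reach 18.4% in replicate 2 and 25.6% in replicate 3, and peaks within 1 kb of a start 1.52% and 1.51%.

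Sites with a CTCF match were found again more often. In replicate 3, 49.1% of them were present, against 31.0% of the other sites. Their median signal was 1.37 against 1.12, so they were compared within the 10 signal groups. Other sites of the same signal were present in 36.5% of cases, a difference of 12.3 points (10.1 to 14.6), and the share with a match was the higher one in 10 of 10 groups. In the strongest group, 99.3% of CTCF sites and 88.2% of other sites were present. The same comparison among sites whose nearest gene had under 5 sites gave 9.75 points (7.40 to 12.1).

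Matches to the RUNX, TCF7/LEF1 and interferon response consensus went the other way or showed no clear difference. RUNX (TGTGGTT), the family that includes the CD8 lineage factor RUNX3, matched 8.18% of sites, against 6.65% of all peaks. RUNX sites were present in 28.7% of cases, against 34.9% at matched signal (-6.18 points, -9.26 to -3.10). Where the RUNX match was footprinted, at 179 sites, the difference was -2.45 points (-8.02 to 3.13). TCF7/LEF1 (CTTTGAT), bound by factors of naive T cells, matched 3.31% of sites and 2.69% of all peaks. Its share was 3.81% in introns, 4.05% beyond 50 kb, 3.02% in exons and 1.47% within 1 kb of a start. The matched difference in presence was -4.62 points (-9.55 to 0.318), or -1.89 (-7.41 to 3.64) with the longer list. The 62 sites in which the TCF7/LEF1 match was footprinted were present in 27.4% of cases, against 43.7% at matched signal (-16.2 points, -25.1 to -7.42). The interferon response consensus matched 2.54% of sites and 2.37% of all peaks, with a difference of -6.98 points (-11.9 to -2.08), or -5.87 (-12.0 to 0.226) with the longer list. At the 47 sites where its match was footprinted, the difference was -18.7 points (-27.3 to -10.1), or -20.6 (-30.9 to -10.3) with the longer list.

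Promoter-type consensus matches were scarce. KLF/SP (GGGCGGGG), a GC-rich element bound by zinc finger factors, matched 4.23% of sites and 27.2% of peaks within 1 kb of a start, and ETS (CCGGAAGT) 1.11% and 6.51%. Sites with KLF/SP had a median signal of 1.80 and were present in 49.5% of cases, which was 52.2% for other sites of like signal. ZEB (CAGGTG) matched 20.8% of sites and 18.97% of all peaks, but these letters can be part of the CTCF consensus, and 25.3% of its sites also matched CTCF. The matched difference in presence of ZEB sites was 2.60 points (0.388 to 4.80), and 8.93 (5.66 to 12.2) where the match was footprinted. Among sites without a CTCF match it was 2.06 points (-0.436 to 4.56) for all ZEB matches. NFAT (TGGAAA) matched 14.7% of sites against 12.5% of all peaks, and bHLH (CAGCTG) 13.6% against 13.7%. All matches were searched on both strands and describe letters, not bound factors.

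**Figure D4:**
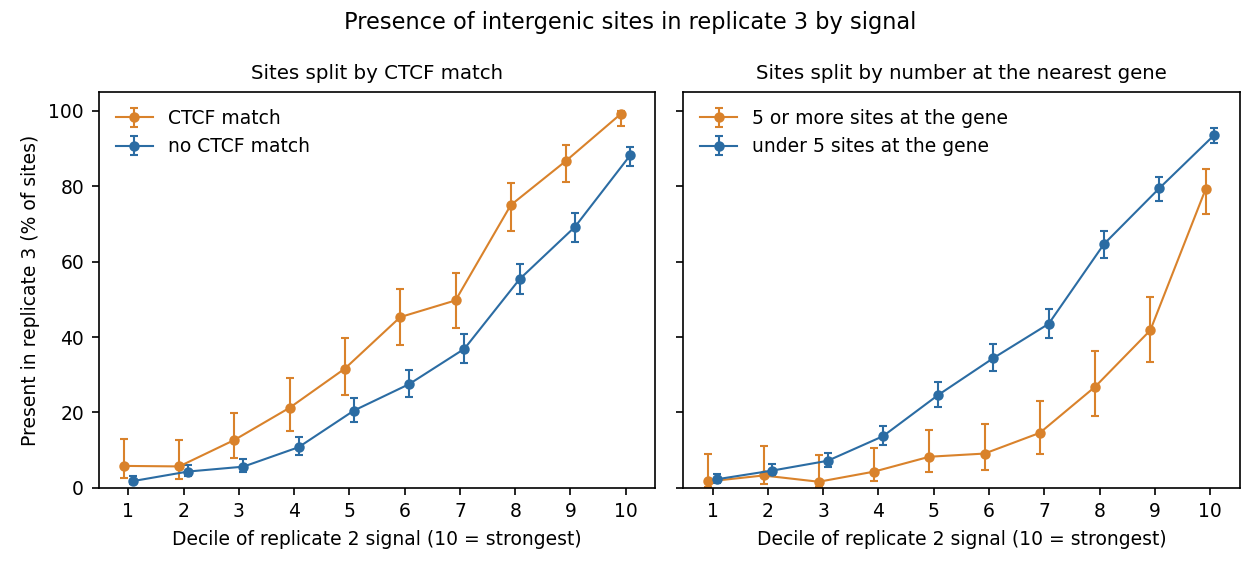
Share of sites present in the shorter list of replicate 3 by group of replicate 2 signal (10 groups of equal size), split by CTCF match and by the number of sites at the nearest gene (points; error bars are Wilson 95% intervals, counting error only). In all 10 groups the share is higher for sites with a CTCF match and lower for sites whose gene had 5 or more.

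Transfer RNA genes formed a strong class among the sites. These short genes are transcribed by RNA polymerase III from elements within the gene. Of 403 tRNA genes on the assembled chromosomes in the RefSeq annotation of this build, 145 overlapped a site, and 145 sites overlapped a tRNA gene (1.91%). Their median signal in replicate 2 was 4.38 (interquartile range 2.44 to 6.39), against 1.15 for the other sites, and 95 of the 145 were in the strongest of the 10 signal groups. Footprints lay in 97.9% of them, with a median of 4, and the median CpG ratio was 0.830. By the same rule in replicate 3, 73 sites overlapped a tRNA gene, with a median signal of 4.52. High signal was not particular to tRNA genes at these sites. In replicate 2 the 32 tRNA peaks within 1 kb of a protein-coding start had a median of 6.23, and the 7 beyond 50 kb one of 5.40.

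For their signal, tRNA sites were missing from replicate 3 unusually often. Of the 145, 78 (53.8%) were in the shorter list and 107 (73.8%) in the longer one. Other sites of like signal were present in 78.9% and 89.5% of cases, and the matched differences were -25.7 points (-32.1 to -19.3) and -16.6 points (-22.0 to -11.3). The share of tRNA sites was the higher one in 0 of 10 groups for the shorter list and in 1 of 10 for the longer. Many tRNA genes lie in clusters. Those near Abt1, Aurkb, Hist1h4h and Trim27 had 7 tRNA sites each, of which 1, 1, 1 and 2 were present. Of the 78 present, the median log2 ratio of replicate 3 to replicate 2 signal was -0.35, against 0.21 for the other sites present in both. The ratio was alike for tRNA peaks of other classes, at -0.40 within 1 kb of a start and -0.37 beyond 50 kb. At Aurkb the 7 signals of replicate 2 ranged from 2.81 to 7.88, and 5 of the 7 were in the longer list.

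Other non-coding genes accounted for further sites. A start of a gene of another type lay within 1 kb of 760 sites (10.02%), most often a lincRNA (315), and 15.9% of sites overlapped the body of such a gene. Rn7s2, a gene of the RNA of the signal recognition particle, lay at a site near Nemf with 20.3 in replicate 2 and 13.4 in replicate 3. Sites near a non-coding start were present in 37.8% of cases, against 40.1% at matched signal (-2.27 points, -5.12 to 0.583).

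Genes annotated as microRNAs were within 1 kb of 41 sites, of which 16 were present, against 34.3% of all sites. For 4 of the 41, all near Hist1h4h, the annotated gene was n-TStga1, which RefSeq lists as a tRNA gene. The site at Mir132 and Mir212, near Hic1, had 11.4 in replicate 2 and 11.2 in replicate 3. The sites near Tspoap1 that surround Mir142hg behaved otherwise. There were 6, with signals of 7.38, 5.04, 2.82, 2.59, 2.18 and 1.50 in replicate 2, and none was in either list of replicate 3.

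The sites with the highest mean rank over both libraries lay away from T cell genes. A site 21.5 kb upstream of Igf2bp3 had 73.2 in replicate 2 and 57.7 in replicate 3. The next was 35.5 kb upstream of Pak3, with 40.9 and 35.1, followed by Hic2 with 19.1 and 15.8 and the Nemf site above. Sites near Trpv4, Gm21887, Zfp239, Ccne1, Tmpo and Trappc9 completed the first 10, with 12.7 to 14.6 in replicate 2 and 10.8 to 13.5 in replicate 3. None of the 10 held a CTCF match. Sequence similar at 90% identity or more over 50% or more of the site occurred at 9 other places on the chromosomes for Pak3, 3 for Igf2bp3, 2 for Hic2, 17 for Gm21887 and 1 for Nemf. The other 5 sites had no such copy, and the part of copies in the signals was not tested.

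Sites were spread over many genes. They had 4596 nearest genes, 21.1% of the 21827 protein-coding symbols, of which 2927 had 1 site, 985 had 2, 527 had 3 or 4, and 157 had 5 or more. The genes with most sites were Gm21860 (20), Ccr7 (12), Cxcr4 (11), Zfp36l1 (11), Abt1 and Nfkbia (10 each), and Arl4c, Chd2, Irf2bpl and Olfr1423 (9 each). Ccr7 and Cxcr4 encode chemokine receptors that guide naive T cells. Zfp36l1 encodes an RNA-binding protein that promotes mRNA decay, and Nfkbia the inhibitor of NF-kappaB. Gm21860 is on chromosome Y, where several of its calls overlap one another, and 19 of the 20 signals were 1.21 or less. Abt1 and Olfr1423 owe 7 and 6 of their sites to tRNA genes.

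Few sites of these genes were in replicate 3. In the shorter list were 1 of 12 at Ccr7, 0 of 11 at Cxcr4, 0 of 11 at Zfp36l1, 1 of 10 at Nfkbia, 3 of 9 at Arl4c and 1 of 9 at Chd2. Taking the 157 genes with 5 or more sites together, a grouping made after these values were seen, 26.9% of their 953 sites were present. Other sites were present in 35.4% of cases, although the median signal was 1.45 at the 157 genes and 1.13 elsewhere. Within signal groups the difference was -19.5 points (-21.9 to -17.2), and the share was lower in all 10 groups. The number of sites in replicate 2 defined the grouping, so the comparison is a description and not a test.

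The difference was about as large without tRNA sites, without overlapping calls and without CTCF sites. Among the 953 sites, 73 (7.66%) overlapped a tRNA gene, against 1.09% elsewhere, and without them the matched difference was -18.4 points (-20.7 to -16.0). Without sites that shared bases it was -19.7 points, and among sites without a CTCF match -18.8 points. CTCF matches lay in 8.29% of the 953 sites and in 19.9% of the others. No position with a false discovery rate of 0.05 or less was listed in replicate 3 at 53.4% of the 953 sites and at 41.4% of the others. Sites that were alone at their gene were present in 37.8% of cases, against 27.9% of all other sites at matched signal (10.2 points, 8.46 to 11.9). Those other sites include the 953, so this describes the same grouping by number of sites and is not a separate result.

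At 38 of the 157 genes no site was in the shorter list of replicate 3, and at 12 none was in the longer list. Of the 953 sites of the 157 genes, 26.9% were in the shorter list and 43.4% in the longer. The shares of all sites were 34.3% and 54.2%. How many genes without a present site these shares alone would give was not computed, so the genes named next are a description. Cxcr4, Zfp36l1, Ccr1, Il6st, Irf2bp2, Vdac1 and Vps37b were among the 38 and had 7 or more sites each. Ccr1 encodes a chemokine receptor and Il6st the signal-transducing subunit of the interleukin-6 receptor. Their 8 sites each had signals of up to 5.10 and 4.03. Irf2bp2, a transcriptional corepressor gene, was the one of these named genes with no site in the longer list either.

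T cell genes often had such sites. Of 22 genes of naive cells and homing, 15 (68.2%) were nearest to at least 1, with 55 sites in all, of median signal 1.73, against 21.1% of symbols and 1.17 for all sites. In the shorter list of replicate 3 were 14 of the 55 sites (25.5%), against 34.3% of all sites and 49.1% of other sites at matched signal, and in the longer list 21. For 22 genes of the T cell receptor and its signalling, 15 had a site, with 35 sites, 8 present (22.9%, against 38.4% at matched signal) and a median of 1.31. Of 5 CD8 lineage genes 3 had 9 sites, 2 of them present (22.2%, against 51.9%), with a median of 1.90. Of 33 effector and activation genes 19 had 59 sites, 18 present (30.5%, against 40.2%), with a median of 1.34.

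Lists of other cells gave fewer. B cell genes had a site at 2 of 12, myeloid genes at 4 of 12 and erythroid genes at 1 of 8, with 4, 7 and 1 sites in all. In the shorter list of replicate 3 were 2 of the 4 B cell sites, 4 of the 7 myeloid sites and 0 of the 1 erythroid site. The longer list held 4, 6 and 0 of them. Housekeeping genes had a site at 7 of 12 (58.3%), much like the CD8 lineage (60%) and effector (57.6%) lists, so having such sites was not particular to T cell genes. Of their 16 sites, 2 were in the shorter list (12.5%, against 65.2% at matched signal) and 10 in the longer. Of the myeloid sites, 1 at Fcgr3 overlapped a tRNA gene, and those at Adgre1, with 3.85 and 2.50, had 4.20 and 3.12 in replicate 3. At Csf1r, which marks macrophages, there was no site. Whether other cells contributed was not tested.

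Tcf7 encodes the factor TCF-1, which maintains the naive state. It had 8 sites, all upstream, with signals from 0.865 to 6.58 in replicate 2. The strongest, 31.0 kb upstream and printed above, had 6.58 and 3.75, and sites at 16.6 kb and 14.4 kb had 3.89 and 4.07, and 3.71 and 6.01. These were the 3 in the shorter list, and the last held a CTCF match. One more, at 35.5 kb with 3.10, was in the longer list with 2.62. The other 4 had at most 1.47 in replicate 2 and were in neither list.

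Ccr7 directs naive T cells into lymph nodes. Its 12 sites, 6 on each side, had signals from 0.843 to 5.16 in replicate 2. The one in replicate 3 was 34.3 kb upstream, with 2.43 in replicate 2 and 2.76 in replicate 3. Its 3 strongest, at 15.8 kb and 13.1 kb upstream and 18.3 kb downstream, had 5.16, 3.22 and 3.11 and were in neither list.

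Btg2 and S1pr1 showed the more usual order. Btg2, an antiproliferative gene of quiescent cells, had 6 sites, and those present were its strongest, with 4.82 and 4.12 in replicate 2 and 3.21 and 5.60 in replicate 3. S1pr1, the receptor for exit from lymph nodes, had 6 sites, and again those in the shorter list were the strongest, with 4.20 and 3.16 in replicate 2 and 3.43 and 3.07 in replicate 3. Cxcr4 had 11, with 0.694 to 4.83, of which those at 19.6 kb upstream and 21.9 kb downstream were in the longer list, at 2.98 and 1.45.

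Among receptor genes, Cd2, an adhesion receptor, had its strongest site 7.68 kb upstream, with 4.79 and 7.18. Ptprc, the phosphatase CD45, had 1 site, 16.4 kb upstream, with 3.61 and 2.85. Lat, an adaptor of the T cell receptor, had a CTCF site 45.5 kb downstream of its start, with 3.60 and 3.70. Lck, the kinase that acts with CD4 and CD8, had a site 1.66 kb upstream, with 3.43 and 3.25. At each of these genes the strongest site was present in both libraries. They are described because they had the strongest sites of their list, and presence followed signal. Of the 15 genes of the list with a site, 8 had one in the shorter list of replicate 3. No site of Prkcq was in either list, and none of Cd3e, Cd28 or Rasgrp1 was in the shorter one.

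The CD8 lineage genes were less alike. Runx3 had 5 sites, and a pair about 40.4 kb and 40.0 kb upstream was present, with 3.29 and 4.90 in replicate 2 and 2.30 and 4.02 in replicate 3. Cd8a, which encodes the CD8 alpha chain, had 3 sites at 15.6 kb and 3.68 kb upstream and 8.15 kb downstream of its start. Their signals were 1.57, 1.94 and 1.90 in replicate 2, and none was in either list of replicate 3. Cbfb, the partner subunit of RUNX proteins, had 1 site with 1.98, in the longer list with 1.04.

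Among effector and activation genes, Nr4a3, Lag3, Nr4a1 and Egr1 are described because they had the strongest sites, while the median over the list's sites was 1.34. No site was nearest to Nr4a2, Tnf, Il2ra, Ccl3 or Ccl4, the site of Il2 had 0.492, and those of Ifng had 1.75 and 0.597. Nr4a3 had 6 sites, of which the 2 with 0.485 and 0.477 in replicate 2 share bases, and those 1.55 kb and 2.09 kb upstream had 7.90 and 5.94 in replicate 2 and 7.14 and 6.55 in replicate 3. Nr4a1, like it an orphan nuclear receptor of early response, had 2 sites upstream, with 5.81 and 3.25 in replicate 2 and 5.19 and 4.11 in replicate 3. Egr1, an early response zinc finger factor, had 6 sites, 4 of them present, the strongest 3.30 kb upstream with 4.86 and 3.52. The Lag3 site printed above, with its CTCF match, had 6.43 and 6.41.

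**Figure D5:**
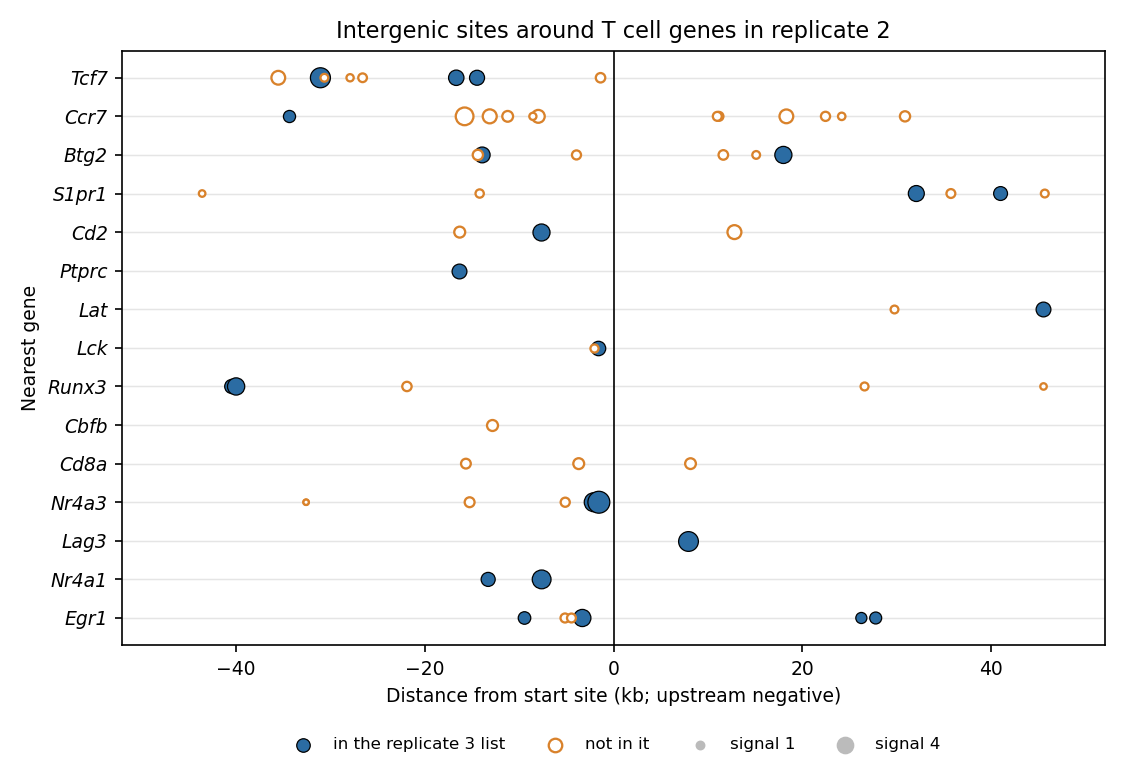
Sites around 15 T cell genes by distance from the start (upstream negative), with area proportional to replicate 2 signal, filled where the shorter list of replicate 3 held a peak and open where it did not. Ccr7 has 12 sites of which 1 is filled, and all 3 sites of Cd8a are open.

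A small set of strong sites was missing from replicate 3. Of the 759 strongest sites, with signals of 3.24 or more, 685 (90.3%) were in the shorter list and 736 in the longer, which left 23. The false discovery rate list of replicate 3 had no position at 12 of the 23, and 1 of the 23 held a CTCF match. They included both Tspoap1 sites above 5, the strongest Ccr7 site, a Cxcr4 site with 4.18, a tRNA site near Aurkb with 5.34, and a site near Dad1 with 3.52, for which the nearest start of another gene type, 12720 bases away, was that of Trac, the T cell receptor alpha constant gene. The highest were sites near Tmpo, with 10.7 and 8.11, which adjoin or lie within a larger call that was present in replicate 3.

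By chromosome, the X had 181 sites with a median signal of 0.746, of which 23.8% were present, and at matched signal the difference from other chromosomes was 2.90 points (-1.68 to 7.49). Sites made of repeats for more than 50% of their length numbered 477, had a median signal of 0.88 and were present in 17.4% of cases, a matched difference of -4.51 points (-7.44 to -1.59). Just inside the 1 kb limit of the rule lay a site 1001 bp from Lactbl1 with a signal of 1.11, absent from replicate 3, and just outside it one at 999 bp from Zfp639 with 0.918, present. At the 50 kb limit these were a site 49990 bp from Ddx3x with 2.17, present, and one 50004 bp from Srsf5 with 1.16, absent.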

How the data were processed

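DNase-seq was analysed in 2 libraries of 1 group, from per-library files on mm10. The authors' deposited peak lists hold a signal for each peak whose scaling is not stated, and a shorter and a longer list exist for each library (38223 and 53597 peaks in replicate 2, 17061 and 24844 in replicate 3). The deposited false discovery rate lists give a q-value of at most 0.05 per stretch of positions, and the deposited footprint lists were used as intervals. Per the notes deposited with the files, each list came from its own library's alignments, and neither the aligner nor the callers were given in the sources used here.

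Peaks were classed against GENCODE M21 basic protein-coding genes, with precedence for a start within 1 kb, then exon, intron and distance. Ties of the nearest start went to the alphabetically first gene. Presence meant 1 bp or more of overlap. Eligible sequence was the assembled, non-N sequence outside protein-coding bodies at 1 to 50 kb from a start. Motif matches were exact matches to 17 consensus strings on both strands, called footprinted where they lay in a footprint extended by 5 bp. tRNA genes came from the RefSeq annotation of the same build, and copies of sites were sought with blastn 2.17.0+.

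With 1 group no test was made. Shares carry Wilson intervals and matched differences are Mantel-Haenszel risk differences over 10 groups of equal size by signal, with 95% intervals that treat sites as independent and cover counting error only. Classification, overlap and the matched difference were tested on simulated data. Named sites and genes followed a rule: the 10 sites of highest mean signal rank, the 10 genes with most sites, up to 4 genes of each list by strongest site, and the sites beside each limit. Other named genes, the tRNA class and the grouping by 5 or more sites were chosen after their values were seen. Results at some genes are not reported here. The members and all lists were chosen with earlier results of these data known. Alternatives changed the peak lists, the distance point, start sites, gene types, number of peaks, overlap, footprint position and library. Python 3.11.15, pandas 2.3.3, numpy 2.4.6, scipy 1.17.1, pysam 0.24.0 and matplotlib 3.10.9 were used.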

Additional observations from a re-analysis of the deposited data

How the results depend on the processing

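Between the libraries, some differences in footprint share from other classes changed sign. The footprint share of sites was 12.3 points above that of peaks within 1 kb of a start in replicate 2 and -7.06 points (-9.05 to -5.11) from it in replicate 3. Against exons the footprint difference was 2.11 (0.801 to 3.57) and -5.28 points (-9.28 to -1.01). The CTCF difference from exons was 1.11 (-0.886 to 3.00) and -1.80 points (-6.03 to 2.16), with 0 inside both intervals. The matched difference in presence from peaks within 1 kb of a start was below 0 under each of its 8 alternatives. With the longer list of replicate 2, presence was 24.2% and its matched difference from peaks within 1 kb of a start -5.28 points. With the longer list of replicate 3 these were 54.2% and -3.75, with 50% overlap 29.5% and -0.838, and with as many peaks as replicate 3 has 66.7% and -10.5. That last setting left 2958 sites with a median signal of 2.27 and a ratio of density between the first and last interval of 2.48. The ratio was 1.81 from peak centres and 1.67 outside genes of every type, where sites made up 16.7% of peaks. With gene 5 prime ends as starts, 73.8% of sites were upstream. Leaving out either library gave 2638 to 7588 sites, 15.5% to 19.9% of peaks, 69.0% to 71.2% upstream, 67.5% to 93.8% with a footprint, a median signal of 1.17 to 2.44, 18.4% to 25.6% with a CTCF match and a density ratio of 1.75 to 1.81. Among alternatives chosen after seeing the data, the matched difference of CTCF sites was 15.3 points with the longer list and 14.6 with 50% overlap, and 10.2 to 13.3 in the other 6. For genes with 5 or more sites it was -22.5 with the longer list and -22.3 for sites 150 to 250 bp wide, and -20.3 to -18.4 in the other 6. The causes of these shifts were not tested. No paired analysis was possible because there is 1 group. Presence ranged from 2.24% in the weakest of 10 signal groups to 90.3% in the strongest, and the part of depth in it was not tested.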
